A study of Homo sapiens with 11 samples.

Results

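The nuclear-encoded subunits of oxidative phosphorylation were followed in ARP1, an established human multiple myeloma cell line that makes IgA kappa. Members were chosen by gene symbol alone: numbered NDUFA, NDUFB, NDUFC, NDUFS and NDUFV genes with NDUFAB1, the genes SDHA to SDHD, symbols starting with UQCR, symbols from COX4 to COX8 and from ATP5A to ATP5O, and CYC1 and CYCS. This rule matched 82 of the 15148 genes in the 2 expression tables, all 82 of them in the knockdown table and 73 in the overexpression table. ATP5J2-PTCD1, a readthrough transcript, was set aside, which left 81 subunits: 37 of complex I, 4 of complex II, 10 of complex III, 14 of complex IV, 15 of complex V, and cytochrome c itself. NDUFA4 was placed in complex IV, where its protein is found, and COX7A2L, a factor that joins complexes III and IV into supercomplexes, was kept with complex IV. Values for NDUFA13, NDUFB8, NDUFC2, UQCRQ, UQCRHL, COX6B2, ATP5E and ATP5J2 were used from the knockdown table only.

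The knockdown comparison set 3 PHF19 shRNA libraries against 3 scramble libraries. The overexpression comparison set 2 libraries of ARP1 cells carrying a lentiviral PHF19 open reading frame (OE), sorted for overexpression, against 3 libraries with the empty PCDH vector (EV). PHF19 binds and steers Polycomb repressive complex 2, and the virus was packaged in HEK293T cells. Groups follow the sample titles, because the genotype label of the scramble and shRNA samples repeats that of the overexpressing cells. The labels do not say how the shRNA was delivered, whether its libraries share a hairpin, or whether replicates were separate cultures, so p-values measure only the spread between these libraries. The EV and OE samples also carry different letters in their descriptions, with no meaning given, and what they stand for cannot be told apart from overexpression.

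Oxidative phosphorylation is the chain of protein complexes in the inner mitochondrial membrane that passes electrons from NADH and succinate to oxygen and uses the proton gradient so made to drive ATP synthesis. Complex I oxidises NADH and complex II oxidises succinate. Both hand electrons to ubiquinone, from which complex III passes them through cytochrome c to complex IV, the oxidase, while complex V is the ATP synthase. Most subunits are encoded in the nucleus and imported into mitochondria. The 13 subunits encoded in mitochondrial DNA were not analysed here.

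The deposited values are abundances normalised for gene length and depth, of FPKM type, with no unit named in the headers, so levels of different genes can be compared per length but read depth is unknown. The values summed to 470294 to 526068 per library in the knockdown table and 425155 to 502349 in the overexpression table. In scramble libraries PHF19 was 129 ± 20.3 (SD, n = 3) and in those with shRNA 95.3 ± 17.5 (n = 3) (limma adjusted p = 0.147, or 0.0445 with the replicate number as a block), and 115 ± 4.12 (n = 3) in EV and 220.3 ± 9.63 (n = 2) in OE libraries (adjusted p = 0.0438). Of 14 plasma cell and myeloma marker symbols, with IGJ and JCHAIN as names of 1 gene, 11 were listed in each table. IGKC and IGHA1 were not among them. The summed level of the 11 was 1844 to 2063 in scramble and 1463 to 1892 in shRNA libraries. In EV libraries it was 2561 to 3587 and in OE libraries 4386 to 11554. Of the 11, 1 is listed at 0 in both OE libraries, so the higher sum was not shared by every marker. Markers of other cells were low, with a summed level of at most 14.6 for KRT8 and KRT18 in the knockdown table and at most 12.9 for HBB in the overexpression table. Some libraries stood apart on the first principal component of genes that reach 1 in every library. In the knockdown table shRNA replicate 1 lay at 32.7, shRNA replicates 2 and 3 at 8.12 and 10.1, and the scramble libraries between -20.4 and -14.04. In the overexpression table EV replicate 5 lay at 21.7, beyond the OE libraries at 11.6 and 12.5, while EV replicates 3 and 4 lay at -26.6 and -19.3.

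Subunit levels covered a wide range within the scramble libraries. The highest level was that of ATP5B, the catalytic beta subunit of the ATP synthase, at 847 ± 20.2 (SD, n = 3), followed by COX8A at 628 ± 87.9, COX7C at 542 ± 216 and COX4I1 at 449.6 ± 43.3, all 3 subunits of complex IV. COX7C ran from 344 to 773 and overlapped both COX8A and COX4I1, while every COX8A value lay above every COX4I1 value. The lowest tested subunits were NDUFA5 (13.2 ± 2.60) and NDUFA10 (18.2 ± 0.275), both accessory subunits of complex I, and UQCRB (21.99 ± 6.22) of complex III. The median level over subunits was 296 for complex V, 283 for complex IV, 128 for complex I, 105 for complex III and 90.8 for complex II. The 79 tested subunits together made up 2.85% ± 0.359 of the summed values in scramble and 2.81% ± 0.232 in shRNA libraries (SD, n = 3 each), a difference smaller than the spread between libraries.

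Genes of the same function were used unequally. The c ring of the ATP synthase is built from a protein encoded by ATP5G1, ATP5G2 and ATP5G3, which stood at 361 ± 68.3, 368 ± 72.3 and 81.2 ± 17.3 in scramble libraries (SD, n = 3). ATP5G3 was the lowest of these in every scramble and shRNA library, and ATP5G1 and ATP5G2 could not be ordered within the spread of the scramble libraries. Among isoforms mostly known from testis, COX7B2 was at 26.0 ± 5.29 beside 283 ± 83.1 for COX7B. COX6B2 was at 0.03 to 0.53 in all but shRNA replicate 3, where it is listed at 0, beside 350.2 ± 69.1 for COX6B1, and it was too low to be tested. UQCRHL, an intronless copy of UQCRH, was the other subunit not tested, at 0.23 in scramble replicate 1, 0.48 in shRNA replicate 1 and listed at 0 elsewhere. UQCRH itself was at 310.1 ± 64.1. CYCS, UQCRH, the ATP5G genes and several small subunits have processed copies in the genome that could take up or lend reads, so their exact levels are uncertain.

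No subunit passed the test in the knockdown comparison. At an adjusted p under 0.05 (limma, Benjamini-Hochberg over all genes), 0 of 79 subunits were called, where 5.51% of the 10900 genes tested were. At an unadjusted p under 0.05 there were 8 subunits, 5 higher and 3 lower in shRNA libraries, where 24.1% of all genes were past that level, 15.3% higher and 8.74% lower. The shRNA and scramble libraries did not overlap for 8 subunits, higher for NDUFA10, NDUFB5, NDUFS7, NDUFV1, UQCRC2 and COX7A2L and lower for NDUFV2 and NDUFS3, where this held for 32% of all genes, 18.9% higher and 13% lower. With the replicate number as a block 2 subunits were called, UQCRC2 and COX7A2L, both higher, where 11.9% of all genes were, 8.2% as higher. Under quantile normalisation 3 were called, UQCRC2, COX7A2L and NDUFV1, again all higher, where 5.28% of all genes were, 3.42% as higher.

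The differences were small in either direction. Of the 79 subunits 36 had a higher and 43 a lower mean in shRNA libraries, and the differences in log2(value + 1) ran from -0.44 to 0.43, with a median of -0.02 beside 0.03 over all genes tested. None exceeded 0.5 in size, a size reached by 1383 of the 10900 genes. The 95% interval of the difference lay within ±0.5 for 33 subunits and within ±1 for 75. The other 4 were NDUFB1, ATP5I, ATP5E and ATP5J2, whose libraries varied most. With the replicate number as a block their SEs were smaller, at 0.15 against 0.78 for NDUFB1 and 0.16 against 0.52 for ATP5I. For ATP5E they were 0.14 against 0.43 and for ATP5J2 0.12 against 0.41. The median over subunits turned with single libraries: it was -0.16 without scramble replicate 3, 0.10 without scramble replicate 1, 0.05 without shRNA replicate 3 and 0.02 without scramble replicate 2, and it was 0.03 after quantile normalisation. Within replicate numbers 1, 2 and 3 the median over subunits was -0.06, -0.13 and 0.14. In these bulk samples, fewer cells of a type and less RNA per cell cannot be told apart.

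**Figure D1:**
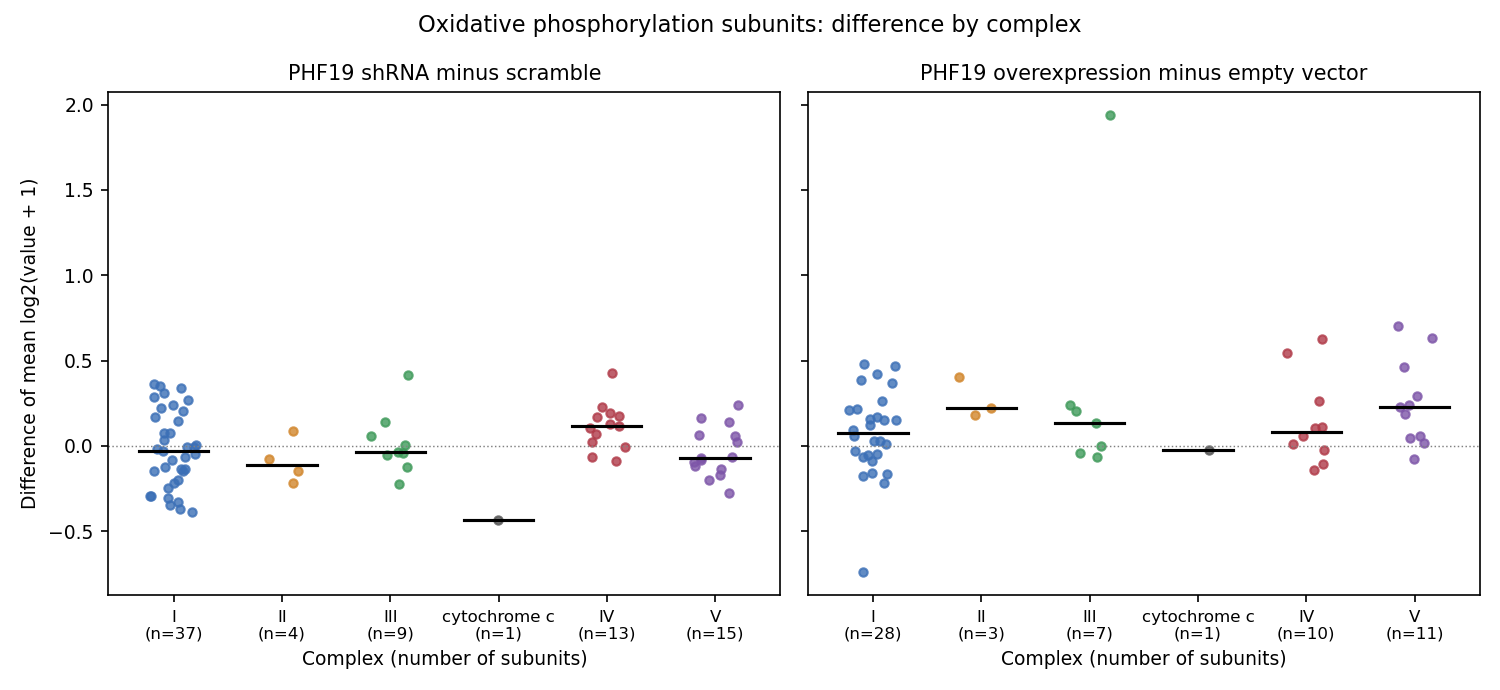
Difference of mean log2(value + 1), treated minus control, for each subunit (points) by complex, with the median as a black bar; left, PHF19 shRNA minus scramble for 79 subunits; right, PHF19 overexpression minus empty vector for the 60 tested subunits with no value of 0. The left-hand points stay between -0.44 and 0.43, and the right-hand point far above the others is UQCRB at 1.94, whose libraries overlapped.

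Complex III held 1 of the subunits called with the block. UQCRC2, a large core protein of the cytochrome bc1 complex, was at 77.9, 84.6 and 77.9 in the scramble libraries and at 107, 111 and 103 in the shRNA libraries. Every shRNA library lay above every scramble library, and the differences within replicate numbers 1, 2 and 3 were 0.46, 0.39 and 0.39 on the log2 scale. The difference of means was 0.41 (SE 0.11, 95% interval 0.17 to 0.66, limma adjusted p = 0.0593), and with the replicate block adjusted p was 0.0342. No other tested subunit of complex III had an unadjusted p under 0.05, and the median of its 9 was -0.03. CYC1, which carries the haem of cytochrome c1, was at 206 ± 13.99 and 203 ± 31.5 (SD, n = 3), and UQCRFS1, the Rieske iron-sulfur protein, at 139 ± 10.7 and 144 ± 4.21. UQCR10, a small membrane subunit, was at 105 ± 10.5 and 89.8 ± 7.75 (-0.22, adjusted p = 0.325).

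COX7A2L, the other one, differed by as much. Its values were 43.3, 44.2 and 40.8 in scramble and 56.4, 61.4 and 55.6 in shRNA libraries, again without overlap. The difference was 0.43 (SE 0.11, 95% interval 0.18 to 0.67, limma adjusted p = 0.0541). Adjusted p was 0.0301 with the replicate block and 0.0444 without shRNA replicate 1, the library that stood apart. Over the alternatives that leave out any other library it was 0.116 to 0.150. In OE libraries COX7A2L was 76.8 and 83.5, beside 61.6, 62.5 and 76.6 in EV libraries (0.26, adjusted p = 0.552).

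The catalytic subunits of complex I split in direction. NDUFV1, which binds NADH and flavin, was at 166, 163 and 148 in scramble and 209, 198 and 203 in shRNA libraries (0.35, SE 0.12, limma adjusted p = 0.103, and 0.0644 with the block). NDUFS7, which holds the iron-sulfur cluster next to ubiquinone, was at 184, 206 and 188 in scramble and 221, 249.6 and 265 in shRNA libraries (0.34, SE 0.13, adjusted p = 0.134, and 0.0760 with the block). In both genes all shRNA libraries were above all scramble libraries. NDUFV2, the iron-sulfur partner of NDUFV1, was at 206, 186 and 148 in scramble and 132, 145 and 136 in shRNA libraries (-0.37, SE 0.14, adjusted p = 0.152, and 0.0855 with the block). NDUFS3, a core subunit without a cofactor, was at 144, 129 and 111 in scramble and 98.8, 107 and 105 in shRNA libraries (-0.29, SE 0.13, adjusted p = 0.204). In these genes every shRNA library was below every scramble library, with scramble replicate 3 nearest to the shRNA libraries. NDUFS8 and NDUFS1, core subunits that hold iron-sulfur clusters, differed by -0.0045 and -0.08.

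The 30 accessory subunits of complex I had a median difference of -0.04, with 13 higher and 17 lower means. The lowest was NDUFC1, at 86.0, 76.3 and 57.7 in scramble and 71.4, 46.8 and 49.9 in shRNA libraries (-0.39, adjusted p = 0.244), and its groups overlapped. NDUFAB1, which doubles as the acyl carrier protein of mitochondrial fatty acid synthesis, was at 242, 224 and 169 in scramble and 157, 181 and 156.4 in shRNA libraries (-0.34, SE 0.16, adjusted p = 0.210). Its highest shRNA value lay above its lowest scramble value. The highest was NDUFA13, also known as GRIM-19, at 317, 304 and 199.7 in scramble and 481, 284 and 299.9 in shRNA libraries (0.36, adjusted p = 0.379), where the excess was absent in replicate 2. NDUFB5 was at 88.4 ± 9.46 and 109.9 ± 12.9 (SD, n = 3) and did not overlap (0.31, adjusted p = 0.195).

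Complex II differed little. SDHA, the flavoprotein that oxidises succinate, was at 90.0 ± 5.51 in scramble and 95.5 ± 2.71 in shRNA libraries (SD, n = 3), a difference of 0.08 (95% interval -0.17 to 0.34). SDHB, its iron-sulfur partner, was at 101, 94.2 and 78.9 in scramble and 65.2, 88.1 and 83.2 in shRNA libraries (-0.22, 95% interval -0.55 to 0.12), and the low shRNA value was that of replicate 1. The membrane anchors SDHC and SDHD differed by -0.08 and -0.15. Adjusted p-values of the 4 subunits were 0.414 to 0.764, and all 4 had overlapping groups.

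In complex IV 10 of 13 tested subunits had a higher mean in shRNA libraries, with a median difference of 0.12. In fits without the block that median was -0.11 without scramble replicate 3 and -0.03 without shRNA replicate 1, so its sign there depended on those libraries. Within replicate numbers 1, 2 and 3 the median difference of complex IV was 0.14, -0.10 and 0.35. COX8A, the most abundant, was at 682, 675 and 527 in scramble and 791, 665 and 665 in shRNA libraries (0.18, adjusted p = 0.516). COX7A2, a ubiquitous small subunit, was at 94.7 ± 28.5 and 109.9 ± 28.9 (SD, n = 3, 0.23, adjusted p = 0.600), and the difference was -0.03 without scramble replicate 3. NDUFA4 was at 65.0 ± 18.1 and 74.1 ± 20.1, and COX4I1 at 449.6 ± 43.3 and 481 ± 13.3. Apart from COX7A2L, none of these had groups that did not overlap.

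Complex V and cytochrome c were on the lower side. Of the 15 complex V subunits 9 had a lower mean, the median was -0.07, and no subunit had an unadjusted p under 0.05. The F1 head differed least: ATP5A1, its alpha subunit, was at 381 ± 16.4 and 396 ± 17.96, and ATP5B at 847 ± 20.2 and 803 ± 77.5 (SD, n = 3). Within the c ring ATP5G1 and ATP5G3 differed by -0.17 and -0.28 and ATP5G2 by 0.24, with adjusted p of 0.355 to 0.538. ATP5J, coupling factor 6 of the peripheral stalk, was at 155 ± 24.9 and 134 ± 4.58 (-0.20, adjusted p = 0.421). CYCS, the carrier between complexes III and IV and a trigger of apoptosis when released, had the lowest difference of all subunits. Its values were 72.5, 59.9 and 46.3 in scramble and 41.5, 47.99 and 40.1 in shRNA libraries (-0.44, SE 0.16, 95% interval -0.80 to -0.07, adjusted p = 0.143, and 0.0609 with the block). The groups overlapped, since shRNA replicate 2 lay above scramble replicate 3, while each replicate number on its own gave a lower shRNA value.

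**Figure D2:**
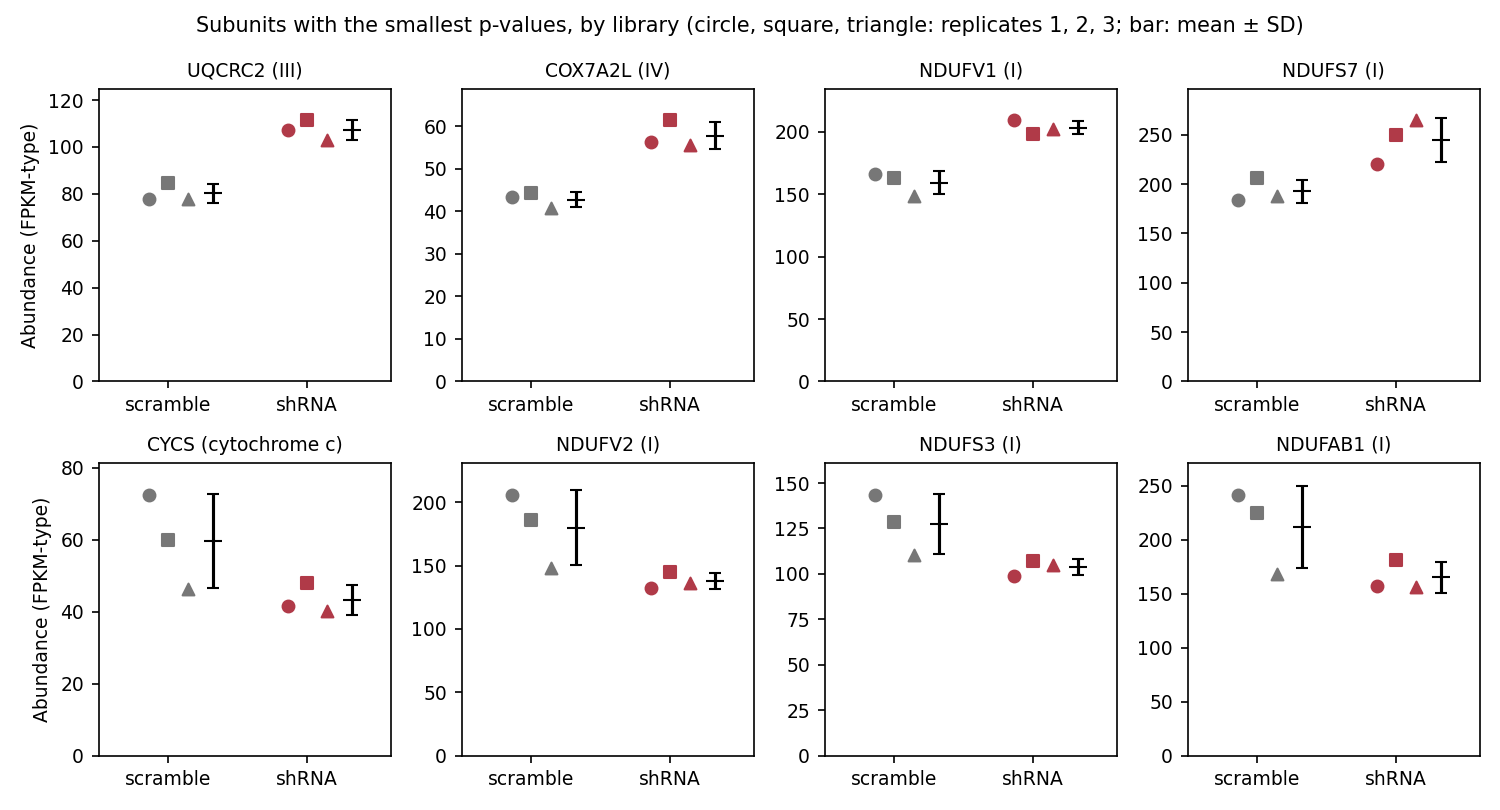
Abundance (FPKM-type, linear axis from 0) of 8 subunits in each of the 3 scramble (grey) and 3 shRNA (red) libraries, with circle, square and triangle for replicates 1, 2 and 3 and the mean ± SD beside them. UQCRC2, COX7A2L, NDUFV1 and NDUFS7 are higher in every shRNA library, NDUFV2 and NDUFS3 are lower in every one, and CYCS and NDUFAB1 overlap.

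Medians of complexes I, III, IV and V changed sign under at least 1 alternative, with ranges of -0.19 to 0.06, -0.11 to 0.08, -0.11 to 0.24 and -0.20 to 0.05. That of complex II stayed between -0.19 and -0.06. The level of each complex differed less between groups than among libraries. For complex V the mean of log2(value + 1) was 7.88 ± 0.298 in scramble and 7.85 ± 0.168 in shRNA libraries, for complex IV 7.501 ± 0.328 and 7.61 ± 0.208, and for complex I 6.75 ± 0.255 and 6.72 ± 0.137 (SD, n = 3). Complex III was at 6.76 ± 0.226 and 6.78 ± 0.109 and complex II at 6.33 ± 0.123 and 6.24 ± 0.0627. All these differences were smaller than the spread among the scramble libraries.

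**Figure D3:**
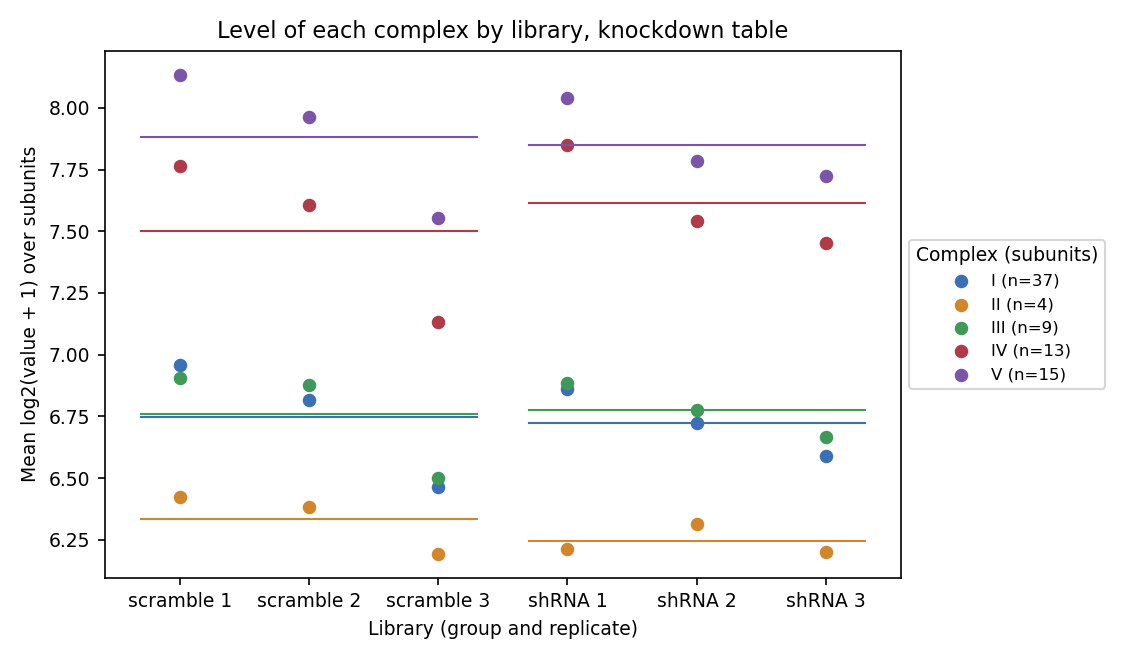
Mean of log2(value + 1) over the subunits of each complex (points) in each library of the knockdown table, with group means as lines. Scramble replicate 3 is the lowest scramble library in all 5 complexes, and within either group complexes IV and V lie above complexes I, II and III.

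The promoters of CYCS, NDUFS7, UQCRC2 and COX7A2L, all among the 8 subunits past an unadjusted p of 0.05, are shown because nuclear respiratory genes are known to be served by the factors NRF1, YY1 and the ETS family. Sequences are the 250 bases before the RefSeq gene start in GRCh38.p14, read 5′ to 3′ on the gene's strand, with the NRF1 core GCATGCGC in capitals where present. CYCS lies on the minus strand (chr7:25125261-25125510), as does COX7A2L (chr2:42361218-42361467), and NDUFS7 (chr19:1383657-1383906) and UQCRC2 (chr16:21953111-21953360) lie on the plus strand.
CYCS: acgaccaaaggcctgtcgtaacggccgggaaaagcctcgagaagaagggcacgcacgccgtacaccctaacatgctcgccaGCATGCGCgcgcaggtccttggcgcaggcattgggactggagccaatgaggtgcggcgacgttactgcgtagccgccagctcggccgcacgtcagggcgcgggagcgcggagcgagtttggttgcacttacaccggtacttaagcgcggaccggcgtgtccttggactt
NDUFS7: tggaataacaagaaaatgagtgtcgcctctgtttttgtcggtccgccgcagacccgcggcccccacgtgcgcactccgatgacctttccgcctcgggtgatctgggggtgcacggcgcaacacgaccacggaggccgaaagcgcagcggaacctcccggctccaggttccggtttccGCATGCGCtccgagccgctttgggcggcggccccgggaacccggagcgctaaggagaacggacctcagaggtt
UQCRC2: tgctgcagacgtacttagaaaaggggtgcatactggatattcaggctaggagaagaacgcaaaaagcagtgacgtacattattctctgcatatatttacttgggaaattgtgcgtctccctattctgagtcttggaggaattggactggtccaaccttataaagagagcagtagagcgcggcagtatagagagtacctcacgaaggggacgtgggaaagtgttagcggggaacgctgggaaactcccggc
COX7A2L: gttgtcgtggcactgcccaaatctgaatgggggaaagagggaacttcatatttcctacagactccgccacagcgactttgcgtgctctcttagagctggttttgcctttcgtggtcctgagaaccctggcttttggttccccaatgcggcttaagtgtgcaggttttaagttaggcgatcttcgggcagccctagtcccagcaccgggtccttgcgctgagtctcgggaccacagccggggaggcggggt
CYCS and NDUFS7, which differed in opposite directions, both hold the NRF1 core, and UQCRC2 and COX7A2L hold none of the motifs searched. These were searched on both strands from 250 bases before to 50 after the start, and 67 of 81 subunits matched a promoter. The NRF1 core GCATGCGC was in 14 of 67 subunit promoters (20.9%), in 5.99% of the promoters of genes tested in the knockdown and in 3.05% of all promoters. AAGATGGCG, a YY1 motif, was in 8 (11.9%, against 4.45% and 1.75%), and CCGGAAGT, an ETS motif, in 9 (13.4%, against 9.88% and 4.14%). TGATGCAA, the element bound by ATF4 with its partners, was in 0 of the 67, against 0.455% of tested and 0.866% of all promoters. None of the 4 motifs contains another, and a match is only a description of the sequence.

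Subunit values also moved with the library number in both groups. Replicate 1 was the highest library of both the scramble and the shRNA group for 43 of 79 subunits (54.4%), where this held for 11.6% of all genes tested. Scramble replicate 3 was the lowest of its group for 72 of 79 subunits (91.1%), against 25.7% of all genes, and shRNA replicate 3 for 51 (64.6%), against 23.8%. NDUFB1, a small accessory subunit of complex I, was the most uneven, at 172, 64.1 and 34.3 in scramble and 179, 55.7 and 51.7 in shRNA libraries. ATP5I, the e subunit of the ATP synthase, was at 485, 257 and 147 in scramble and 429, 183 and 192 in shRNA libraries, and COX7C at 773, 509 and 344 and at 843, 459.8 and 445. In these genes replicate 1 was high in both groups, and the groups as wholes overlapped.

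The excess of replicate 1 was larger for subunits with a short coding sequence. The median of replicate 1 minus the mean of replicates 2 and 3, in log2(value + 1), was 0.28 in scramble and 0.14 in shRNA libraries over the subunits, beside -0.09 and -0.08 over all genes. Across the 79 subunits this excess correlated with coding length at a Spearman rho of -0.68 in both groups, and the excesses of the groups correlated with each other at 0.79. These points share their libraries and are a description. Of the 40 subunits with a coding length of at most 411 nt, 82.5% were highest in replicate 1 of both groups, against 25.6% of the 39 longer subunits. The same held for 35.6% of all 593 genes of at most 411 nt and for 10.2% of the longer genes. Coding length hardly went with the knockdown difference itself (rho -0.05 over the subunits). The part of library number and length in the subunit results was not tested beyond the fit with the replicate block.

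**Figure D4:**
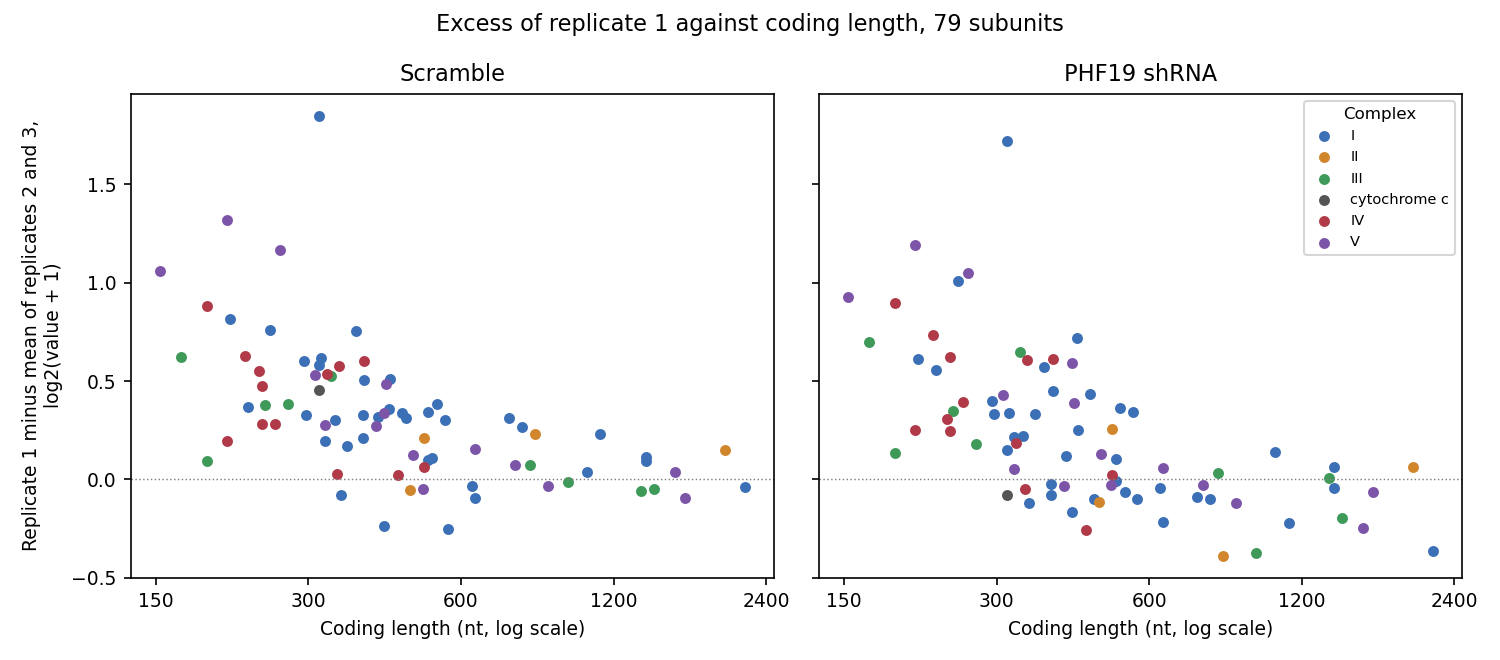
Replicate 1 minus the mean of replicates 2 and 3 in log2(value + 1) against coding length (nt, log axis) for 79 subunits, coloured by complex, in scramble (left) and shRNA (right) libraries. In both groups points above 0 gather at short coding lengths, and NDUFB1 is the highest point, at 1.85 and 1.72.

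Genes that assemble, feed or express the same machinery were compared as well. Among 4 related genes outside the rule, NDUFA4L2, a paralogue of NDUFA4 known to be induced in hypoxia, rose from 4.39, 5.27 and 6.68 in scramble to 21.0, 16.8 and 18.2 in shRNA libraries (1.62, limma adjusted p = 0.0029). NDUFA4 itself differed by 0.19 (adjusted p = 0.656). COQ6, a monooxygenase of ubiquinone synthesis, rose from 5.21 ± 1.16 to 9.53 ± 2.12 (SD, n = 3, 0.76, adjusted p = 0.0492). It was the 1 call among 12 coenzyme Q genes, where 5.51% of all genes tested were called. PDSS1, which makes the tail of ubiquinone, was at 35.4 ± 1.598 and 24.6 ± 4.81 (adjusted p = 0.0732, and 0.0416 with the block).

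Over all 10900 genes tested, 5.51% were called, 24.1% had an unadjusted p under 0.05, 11.9% were called with the block and 4966 had a lower mean. None of the 14 complex I, 4 complex II, 6 complex III, 23 complex IV and 5 complex V assembly genes tested was called (limma), and 0, 1, 3, 5 and 2 of them had an unadjusted p under 0.05. With the block SURF1, a complex IV assembly factor, was called at 22.8 ± 4.13 and 34.6 ± 3.17 (0.59, adjusted p = 0.0155, against 0.0517 without it), as was SDHAF4 of complex II (0.91, 0.0433 against 0.0807). Of 16 genes of the citric acid cycle and pyruvate dehydrogenase 0 were called, 4 had an unadjusted p under 0.05 and 10 had a lower mean, and the block added IDH3B as lower (-0.53, adjusted p = 0.0437). Of 12 genes that copy, transcribe or process mitochondrial DNA and RNA 0 were called and 11 had a lower mean, with a median of -0.32 and 4 at an unadjusted p under 0.05. Within replicate numbers 1, 2 and 3 the median over these genes was -0.61, -0.12 and -0.14. Replicate 1, whose shRNA library stood apart, thus held the largest difference. Of these 12 genes TFB2M, a mitochondrial transcription factor, passed with the block as lower (-0.56, adjusted p = 0.0351) and FASTK as higher (0.49, adjusted p = 0.0202). Of 8 genes of cristae organisation and 9 transcription regulators of nuclear mitochondrial genes tested, 0 were called, 0 and 2 had an unadjusted p under 0.05, and 7 of each had a lower mean. MYC, which drives many nuclear mitochondrial genes, was at 262, 233 and 248 in scramble and 134, 193 and 204 in shRNA libraries (-0.50, adjusted p = 0.103), without overlap. CHAC1, a marker of the ATF4 stress response, was at 7.71 ± 2.69 and 57.02 ± 10.98, and its part in the subunit values was not tested.

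In the overexpression table values of exactly 0 decided which subunits were called. Of 72 tested subunits 2 passed, both higher, where 0.914% of the 10279 genes tested did, 0.613% as higher. SDHD, a membrane anchor of complex II, is listed at 0 in all 3 EV libraries and was at 101 and 97.5 in the OE libraries (limma adjusted p = 0.00059). It passed the filter only through the OE libraries, and 3 values of 0 hold no spread, so this p-value cannot support a change. A gene listed at 0 may be a failed estimate, so no fold is given, and SDHD was not low in the scramble libraries of the same line, at 122 ± 11.4 (SD, n = 3), though the 2 tables were normalised separately. NDUFB10, an accessory subunit of complex I, is listed at 0 in both OE libraries, but also in EV replicates 3 and 5. It was at 180.5 in EV replicate 4 and was not tested. With genes holding any 0 left out, 0 genes and 0 subunits were called. PHF19, which holds no 0 and had a limma adjusted p of 0.0438 in the reported fit, was therefore not called there either. Of the 60 subunits left, 5 had an unadjusted p under 0.05 in that fit, as did 1201 of its 8665 genes.

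Such values were common throughout the table. Of 73 subunits 13 (17.8%) are listed at 0 in at least 1 library, beside 19.2% of all 11062 genes and 16.3% of those that reach a value of 20 in some library. None of the 13 is listed at 0 anywhere in the knockdown table, where their scramble means were 13.2 to 847. ATP5B, the most abundant subunit there, was at 824 and 711 in EV replicates 3 and 5 and 820.4 in OE replicate 1, and is listed at 0 in EV replicate 4 and OE replicate 2. COX8A was at 552 in EV replicate 4, 688 and 752 in the OE libraries and listed at 0 in EV replicates 3 and 5. UQCR11, a small subunit of complex III, was at 57.5 in EV replicate 5, 323 and 347 in the OE libraries and listed at 0 in EV replicates 3 and 4. All 13 have a 0 in the EV group and 6 in the OE group, and each of complexes I to V holds at least 1 of them.

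**Figure D5:**
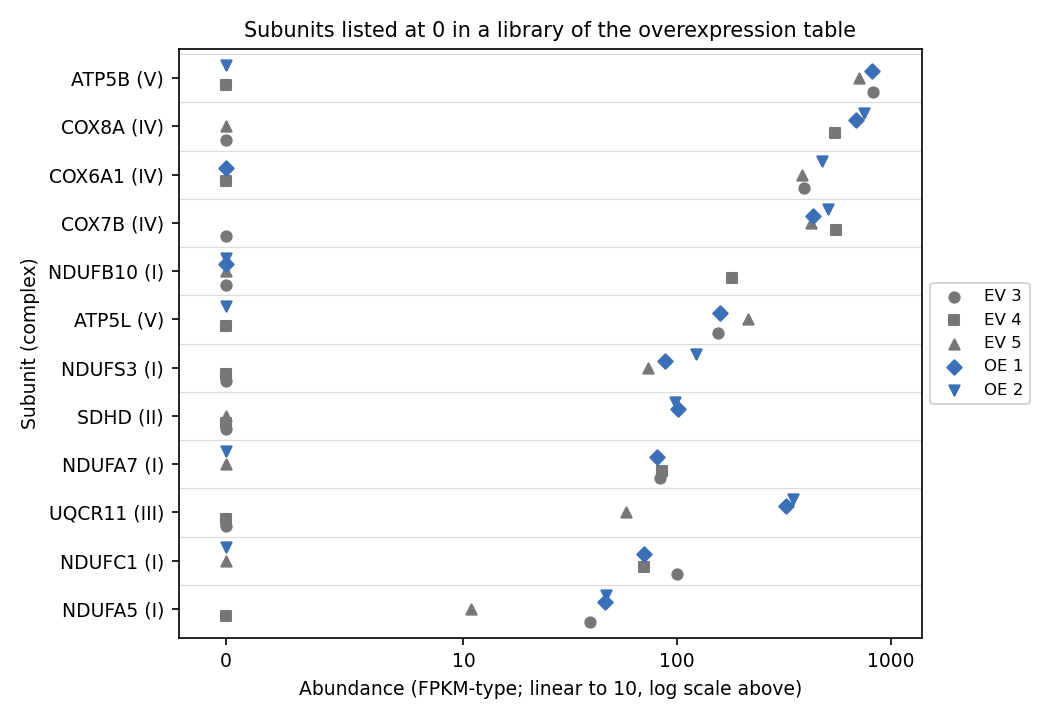
Abundance (FPKM-type, linear to 10 and log above) of 12 of the 13 subunits listed at 0 in any library of the overexpression table, for 3 EV (grey) and 2 OE (blue) libraries, ordered by their level in scramble libraries. SDHD shows 3 grey points at 0 and 2 blue points near 100, while ATP5B, COX6A1 and others show high values beside 0 within a group.

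The 60 tested subunits without any 0 were compared on their own. Their median difference was 0.12, beside 0.07 over the 8665 tested genes without a 0, with 42 higher and 18 lower means. The OE and EV libraries did not overlap for 22 of them, 20 higher and 2 lower. Of the 8665 tested genes without a 0, this held for 2023 as higher and 1039 as lower. Of all 10279 genes tested, with those holding a 0, it held for 34.2%, 23.1% higher and 11.1% lower. Levels in this table depend on its scale: equal table totals moved the median of all genes by -0.21 and that of the subunits to -0.12, and quantile normalisation moved them by -0.13 and to -0.05. Relative to all genes the subunits were 0.04 higher as deposited, 0.02 with equal totals and 0.01 after quantile normalisation. The subunits made up 2.81% ± 0.160 of the summed values in EV (SD, n = 3) and 2.69% ± 0.0629 in OE libraries (n = 2).

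Among the subunits without a 0, complex V held the smallest p-values of the overexpression comparison. ATP5D, the delta subunit of the F1 head, was at 142, 122 and 149.6 in EV and 199 and 252 in OE libraries (0.70, SE 0.16, limma adjusted p = 0.316). ATP5G2 was at 381, 372 and 479.6 in EV and 595 and 676 in OE libraries (0.63, SE 0.16, adjusted p = 0.319). In both genes the OE libraries lay above every EV library, with EV replicate 5 the nearest. ATP5A1 differed by 0.24 (adjusted p = 0.437). ATP5G1 and ATP5G3 differed by 0.19 and 0.47, with overlapping groups.

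Of complex I, NDUFV1 was at 118, 130.5 and 143 in EV and 164 and 186 in OE libraries (0.42, adjusted p = 0.388), and NDUFS8, an iron-sulfur core subunit, at 82.0, 98.5 and 80.2 in EV and 112 and 112 in OE libraries (0.37, adjusted p = 0.421). Both were higher in every OE library. NDUFB6 was at 137, 69.4 and 112 in EV and 59.9 and 61.8 in OE libraries (-0.74, adjusted p = 0.483), and NDUFA6 was the other subunit whose OE libraries lay below all EV libraries. NDUFA9 and NDUFS6 differed by -0.21 and -0.17, with overlapping groups.

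Of complex II, SDHA was at 96.6, 100.0 and 132 in EV and 141 and 146 in OE libraries (0.40, adjusted p = 0.480), while SDHB and SDHC differed by 0.22 and 0.18. With equal table totals SDHB and SDHC were at -0.0095 and -0.05. Of complex III, UQCRB, a ubiquinone-binding subunit, was at 26.4, 153 and 23.0 in EV and 107 and 295 in OE libraries (1.94, SE 1.06, adjusted p = 0.553). UQCRC1 and CYC1 differed by 0.20 and 0.24, and UQCRC1 by -0.03 with equal totals. Of complex IV, COX6C was at 238, 124 and 163 in EV and 215 and 317 in OE libraries (0.63, adjusted p = 0.553). CYCS was at 324, 224 and 139 in EV and 215 and 209.8 in OE libraries (-0.02, adjusted p = 0.986), so its EV libraries enclosed both OE values.

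By complex the medians of the subunits without a 0 were 0.08 for complex I (28 subunits), 0.22 for complex II (3), 0.13 for complex III (7), 0.08 for complex IV (10) and 0.23 for complex V (11). The lowest value over the alternatives was below 0 for each of them, at -0.16, -0.0095, -0.10, -0.15 and -0.0067 in the same order. The 95% interval of the difference lay within ±0.5 for 18 of the 60 subunits and within ±1 for 48. Of all genes tested for overexpression 0.914% were called, 0.613% as higher. Of the neighbouring genes, ATPAF1, an assembly factor of the F1 head, was the 1 call among the lists for overexpression (limma adjusted p = 0.00105). It is listed at 0 in all 3 EV libraries and was at 26.5 and 26.3 in the OE libraries. As for SDHD, the values of 0 may be failed estimates, so no fold is given. ATPAF1 passed the filter only through the OE libraries, and the fit that left out genes holding a 0 did not test it.

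The comparisons have no library in common. UQCRC2 differed by 0.41 with knockdown and 0.13 with overexpression, COX7A2L by 0.43 and 0.26, NDUFV1 by 0.35 and 0.42, NDUFS7 by 0.34 and 0.48, and NDUFB5 by 0.31 and 0.47. These 5 are the subunits that were higher with knockdown at an unadjusted p under 0.05 (limma). As deposited, they had the same sign under opposite changes of PHF19, and none passed the test in the reported fit of either table. Other subunits had opposite signs, such as ATP5G3 (-0.28 and 0.47), ATP5G1 (-0.17 and 0.19) and SDHB (-0.22 and 0.22). The share of subunits, or of all genes, with the same sign in both comparisons was not counted. UQCRC2 and COX7A2L were called in the knockdown with the replicate block, and with NDUFV1 after quantile normalisation. The overexpression differences depend on the scale of their table. Equal table totals moved the median of all genes there by -0.21, more than the 0.13 of UQCRC2. On the deposited scale 42 of the 60 subunits without a 0 were higher in OE libraries. CYCS and NDUFV2 differed by -0.44 and -0.37 with knockdown and by -0.02 and -0.09 with overexpression.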

How the data were processed

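RNA was sequenced from 11 libraries of ARP1 cells. The authors deposited 2 tables of abundances of FPKM type, normalised for gene length and depth, with no unit named in the file headers, so no counts, read depth or counting error are known. The submitters' processing notes name TopHat, without a version, and the build hg19. Each table also holds the authors' p-value per gene, per the file headers, and how it was computed is not stated.

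The tables were normalised separately, so each comparison stayed within its table. Values were taken as log2(value + 1), where a difference understates the change of low genes. A gene was tested where it reached 1 in 3 libraries (knockdown, 10900 genes) or 2 (overexpression, 10279 genes), the size of the smaller group. Differences were tested two-sided with limma 3.58.1 in R 4.3.3, using its trended, robust variances. P-values were adjusted by Benjamini-Hochberg across every gene in the fit, and 0.05 was the threshold. The script was tested on simulated data. Differences are treated minus control, with limma's SE and 95% interval. Levels are means ± SD. Other tables and plots used Python 3.11.15, pandas 2.3.3, numpy 2.4.6, scipy 1.17.1 and matplotlib 3.10.9.

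Scramble and shRNA libraries carry the same numbers 1 to 3. Across genes, their deviations from their own group's mean correlated at 0.341, 0.270 and 0.273 where numbers were equal and at -0.277 to 0.0936 where they were not, so the numbers were taken to pair the libraries. No label says so, and the reported fit has no block, so its SEs and intervals include the spread between library numbers. A fit with that number as a block was also made, and its value is printed where it changes a call.

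The members and the lists of neighbouring genes were chosen with earlier results of these data known. Named were subunits past the threshold, in each complex the 3 of smallest adjusted p and the most abundant, SDHA to SDHD, CYCS, CYC1, the 3 largest differences each way, isoform sets, subunits listed at 0 in a whole group, and called list members. A subunit that these rules name is not reported here. Others, such as NDUFS3, NDUFAB1, NDUFB5, NDUFB1, ATP5I and genes called only with the block, were chosen after their values were seen. Alternatives were other variance models, filters, pseudocounts and scalings, each library left out, genes with a 0 left out, and the block. Coding lengths are those of principal GENCODE transcripts, and promoters are from RefSeq GRCh38.p14. No coordinates were taken from the files.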

Additional observations from a re-analysis of the deposited data

How the results depend on the processing

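In the knockdown comparison 0 subunits were called as reported, 3 after quantile normalisation, 2 with the replicate block and 0 to 1 without a single library (1 without shRNA replicate 1). Genes called numbered 601, against 269 with no filter, 1295 with the replicate block and 65 to 636 without a single library: 66, 65 and 171 without scramble replicates 1, 2 and 3 and 636, 287 and 184 without shRNA replicates 1, 2 and 3. Apart from UQCRC2 and COX7A2L the block changed the call of no subunit. In the overexpression comparison 2 subunits were called, 0 with genes holding a 0 left out, and 2 to 4 without a single library. COX8A (listed at 0 in EV replicates 3 and 5) was added without EV replicate 4 (adjusted p = 0.00573), and UQCR11 (listed at 0 in EV replicates 3 and 4) was among the 4 without EV replicate 5 (adjusted p = 0.00137). Genes called numbered 94, against 36 with a filter at 5, 61 with a pseudocount of 0.1, 0 with genes holding a 0 left out and 103 to 336 without a single library, 336 being the count without EV replicate 5. No paired analysis was possible for overexpression because its groups share no replicate number. The median subunit difference with overexpression was 0.12 as reported, -0.046 after quantile normalisation, -0.12 with equal table totals, and 0.05 to 0.20 without a single library. With knockdown it was -0.02, and -0.16 to 0.10 without a single library. Of 300 values of 20 named subunits under the alternatives for knockdown 289 kept direction and side of the threshold, and of 290 values of 21 subunits for overexpression 283 did. Signs turned for COX7A2 with knockdown (-0.028 without scramble replicate 3, -0.028 to 0.42 without a single library), CYC1 (0.048 after quantile normalisation, 0.092 without shRNA replicate 1, 0.018 without scramble replicate 2, -0.13 to 0.092 without a single library) and UQCRH (0.0020 without scramble replicate 1, -0.30 to 0.0020 without a single library). With overexpression they turned for CYCS (0.27 without EV replicate 3, 0.0032 without EV replicate 4, -0.34 to 0.27 without a single library) and, with equal table totals, for SDHB (-0.0095), SDHC (-0.046) and UQCRC1 (-0.027). None of these subunits was called, and the cause of the shifts was not tested. Depth is unknown, so counting error could not be separated from the spread between libraries, and 3 or 2 libraries a group limit the precision to the intervals given.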

Other observations

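The authors' deposited table for knockdown gives a p under 0.05 for 64 of 81 subunits (79.01%), and for 61.2% of all its 14458 genes. Its smallest value among subunits is that of CYCS, 1.88e-102, where the libraries of the groups overlapped. The authors' deposited table for overexpression gives a p under 0.05 for 2 of 73 subunits (2.74%) and for 12.9% of its 11062 genes. These are ATP5D (0.00881) and ATP5G2 (0.0103), the subunits of smallest limma p among those without a 0. In the same authors' deposited table SDHD has a p of 0.646, although it is listed at 0 in every EV library.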
